A study of Mus musculus with 22 samples.

Results

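This account follows the interaction of tenascin C (TNC) and tumour necrosis factor alpha (TNF) in cultured aortic smooth muscle cells, that is, whether the RNA change made by TNF depends on TNC being present. All 14 cultured-cell arrays of the series were used, of 22 arrays in all. They hold 3 arrays of cells given neither factor, 3 given TNF (10 ng/mL), 4 given exogenous TNC protein (10 µg/mL) and 4 given both. The cells were dispersed enzymatically from the suprarenal aorta of male C57BL/6 mice in which the Tnc gene is knocked out, so every group shares that deletion, and TNC was present only where it was added to the medium. The design text gives 24 h of TNF in serum-containing medium, and it counts 3 independent cultures without TNC and 4 with it. The source labels instead give hours that rise from array to array, from 23 to 36 h, in the order none, TNF, TNC and both. The 24 h of the design text were followed, and the hours of the labels cannot be told apart from the groups. The labels state neither whether these cultures came from separate mice nor whether a culture was split between TNF and no TNF, so p-values measure the spread between these arrays only. The titles of the 4 arrays with TNC alone name either factor, while their treatment label names exogenous TNC, which was followed.

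TNC is a large matrix glycoprotein that is scarce in the healthy adult aorta and is deposited where the wall is injured or remodelled. It is sensed by integrins and can act as a danger signal through Toll-like receptor 4. TNF signals through its own receptors to NF-kB and AP-1, transcription factors that switch on cytokine, chemokine and adhesion genes, and in many cells it also starts a slower interferon programme that is carried by IRF1 and STAT factors. Signals that share a limiting step often give less together than the sum of their separate effects, and signals that each supply a missing part can give more.

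The interaction was taken on the log2 scale as the change made by TNF with TNC present minus the change made by TNF without TNC, for the brightest probe set of each named gene. A value of 0 means that the log2 changes of the separate factors add up. Of 18193 named genes, 15636 were bright enough to be tested, and the interaction was called at an adjusted p under 0.05 for 2898 of them (18.5%). It was higher for 1506 genes (9.63%) and lower for 1392 (8.9%), so that 52% of the called genes lay above additivity. When each array was centred on its median instead, the counts were 777 and 1229, and 38.7% lay above. The median interaction over all tested genes was 0.04 as deposited and -0.03 after that centring.

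The called genes were then sorted by the calls of the single factors and of the combination. Synergy means that the combination was called beyond no factor, beyond TNF alone and beyond TNC alone, in the direction of the interaction, with neither factor alone called the opposite way. This held for 191 genes (1.22% of those tested). Saturation means that each factor alone and the combination moved a gene the same way, with a combination that fell short of the sum and was not called back from either factor. This held for 1053 genes (6.73%). Antagonism means that at least 1 factor alone moved a gene and that the combination was called back from that level. It held for 1351 genes (8.64%), of which 1008 had TNC opposing TNF, 259 had TNF opposing TNC and 84 had each opposing the other. A further 303 called genes met none of these definitions and stay unresolved. Of the called genes, 46.6% were thus antagonistic, 36.3% saturating, 6.59% synergistic and 10.5% unresolved.

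**Figure D1:**
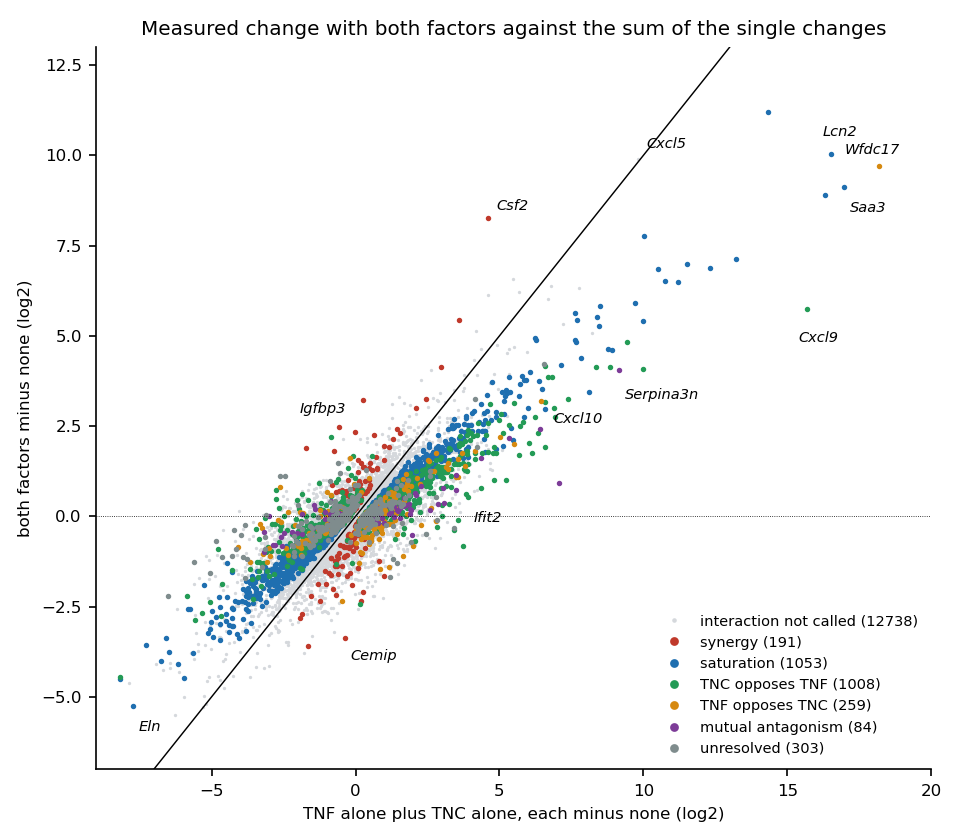
Each point is a gene, with the sum of the log2 changes by TNF alone and by TNC alone on the horizontal axis and the log2 change by both on the vertical axis; the diagonal marks additivity. Among genes with large single changes, saturating (1053) and antagonistic genes lie on the zero side of the diagonal, and the 191 synergistic genes lie beyond it.

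The cultures were checked against markers. The 9 smooth muscle markers each passed the 30th percentile on at least 1 array of every group, and each had its highest mean without factor. Their summed signal was 51952 to 55194 with no factor, 25509 to 27997 with TNF, 39338 to 41819 with TNC and 26679 to 29930 with both. The same held for the presence of all 10 endothelial markers, at a summed signal of 21161 to 27795 over the 14 arrays, with Pecam1 at 3216 and Cdh5 at 1795 with no factor. The 7 fibroblast markers summed to 17055 to 18069 with no factor and to 27717 to 34764 in the other groups, where Dcn and Pdgfra were higher while Col1a1 and Pi16 were lower than without factor. Of the adipocyte markers, Fabp4 had means of 6263 without factor, 1405 with TNF, 7375 with TNC and 2088 with both, and Adipoq 162, 79.5, 24.7 and 21 in the same order. The neutrophil markers summed to 96.9 to 128 without factor, 315 to 316 with TNF, 450 to 663 with TNC and 654 to 878 with both. In the treated groups most of this signal came from Camp and S100a8. The macrophage markers summed to 868 to 1238 without TNC and 2118 to 3144 with it, and Cd14 rose from 117 without factor to 1396 with TNC while Csf1r was at 191 and 237. A change in the mix of cells and a change of RNA per cell cannot be told apart on these arrays, and the part of these markers in the results was not tested. The brighter Tnc probe set lay between 66.3 and 144 on all arrays, and the other between 0.524 and 9.6, below the 30th percentile. Neither checks the TNC label, because TNC was added as protein. Arrays of a group correlated at 0.962 to 0.969 over the tested genes and arrays of different groups at 0.922 to 0.960.

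TNC held back a large interferon-type response to TNF. Of 31 tested genes of the interferon response, 25 had a lower interaction and none a higher one, against 8.9% lower over all genes. Antagonism of TNF by TNC made up 24 of the 25. Of all 15636 tested genes, 466 were in this class with a lower interaction. The median change by TNF alone over the 31 genes was 3.50 on the log2 scale, the median change by TNC alone was -0.10, and the median with both was 1.33. The counts of lower and higher interactions in the list were the same under quantile normalization and median centring.

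Ifit2, an interferon-induced protein that restrains viral translation, gave 737, 731 and 755 without factor, 13837, 14707 and 14971 with TNF, 511, 582, 623 and 550.2 with TNC and 989.9, 1088, 1035 and 1195 with both. All 3 arrays with TNF alone lay above every other array, and the 4 with both factors stood only slightly above the 3 with none. TNF alone thus raised Ifit2 19.6-fold, TNF on top of TNC raised it 1.9-fold, and the interaction was -3.36 ± 0.11 (adjusted p = 9.34e-09). Irf1, the transcription factor that carries part of this programme, was held back less. Its signal was 752, 769.7 and 845 without factor, 6433, 6396 and 6356 with TNF, 1385, 1473, 1468 and 1372 with TNC and 3821, 3839, 3854 and 3465 with both, and the groups did not overlap. TNC alone raised Irf1 by 0.85 ± 0.06, and yet the combination stayed 0.77 below TNF alone (interaction -1.63 ± 0.08, adjusted p = 2.63e-07).

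The chemokines CXCL9, CXCL10 and CXCL11 call in T cells through the receptor CXCR3, and all 3 of their genes were antagonised in this way. Cxcl10 read 108, 64.1 and 58.1 without factor, 11209, 12561 and 12478 with TNF, 42, 67.7, 38.6 and 32 with TNC and 504, 704, 1004 and 550.5 with both. TNF alone raised it 164-fold, and adding TNC to TNF left it 18.1-fold lower, above the cells without TNF but below every array with TNF alone (interaction -3.41 ± 0.42, adjusted p = 0.000214). Cxcl9 fell from 3075, 3485 and 2722 with TNF alone to 78.3, 132, 126 and 57.6 with both factors. Its signal without any factor, 1.29, 1.36 and 3, lies below the 30th percentile of the arrays, so its interaction of -9.95 ± 0.57 rests on dim values and was -5.95 when 32 was added to every signal. For Cxcl11 the signal was 307, 342 and 405 with TNF alone and 44.9, 34.6, 51.6 and 26 with both (interaction -3.82 ± 0.69, adjusted p = 0.00272). Its mean without factor, 19, was dim as well, and the interaction was -2.71 with 32 added.

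The machinery that cuts and loads peptides for display on major histocompatibility complex class I followed the same course. Of 13 tested genes, 12 had a lower interaction, against 8.9% over all genes. In 10 of them the class was antagonism of TNF by TNC. That class, with a lower interaction, took in 466 of all 15636 tested genes. Psmb8, a subunit of the immunoproteasome, read 499, 399 and 448 without factor, 8662, 8855 and 8546 with TNF, 719, 742, 822 and 750 with TNC and 3448, 3412, 2958 and 2974 with both. Its level with both factors was higher than with TNC alone and lower than with TNF alone on every array (interaction -2.21 ± 0.12, adjusted p = 5.55e-07). Tap1, a subunit of the transporter that carries peptides into the endoplasmic reticulum, had a mean signal of 4433 with TNF and 1124 with both (interaction -2.01 ± 0.15); the call was lost when all its probe sets were averaged (adjusted p = 0.657).

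Other genes that TNF moved also changed less in the presence of TNC. Over all 672 genes that TNF alone raised at least 2-fold, the median share of the log2 change by TNF that remained in the presence of TNC was 31.6%, and over the 785 that it lowered as much it was 31.0%. The median share was 43.2% over 30 interferon genes, 47.6% over 12 class I genes, 35.5% over 18 NF-kB genes, 8.93% over the 3 interferon-driven chemokines and 6.10% over 9 acute phase genes. These genes were picked by the change without TNC, which is also the denominator, so the shares describe the genes and test nothing.

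**Figure D2:**
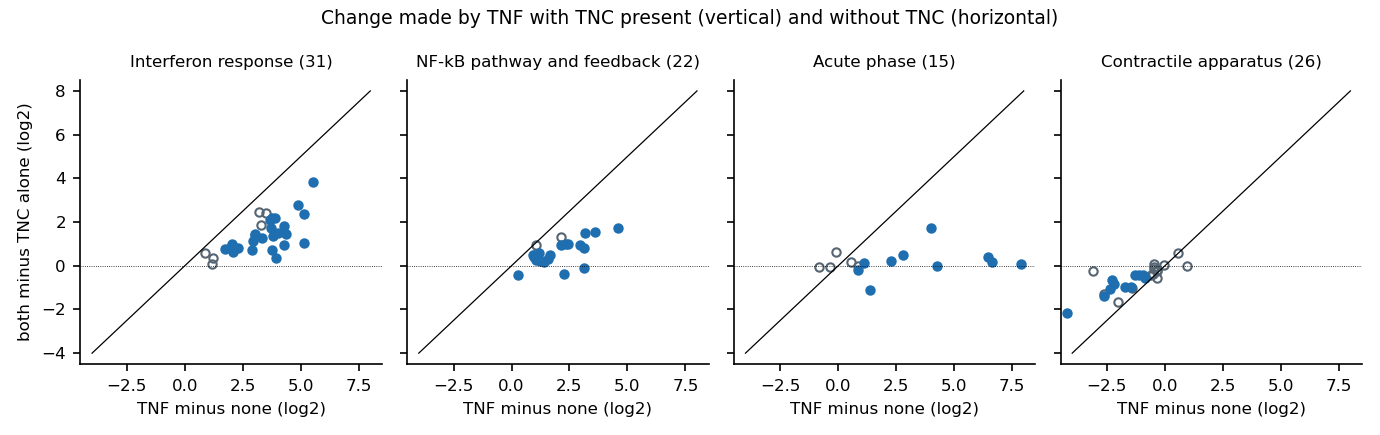
Each point is a gene of the list named above the panel, with the log2 change by TNF without TNC on the horizontal axis and with TNC on the vertical axis; filled points have a called interaction and the diagonal marks an equal change. Called points lie between the diagonal and the dotted line at 0 for the interferon genes, and close to the dotted line for the acute phase genes that TNF alone raised most.

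The 250 bases upstream of the gene starts were read beside these classes, from RefSeq promoters of the GRCm38.p6 build, for the 12498 tested genes that have one. Each was searched on both strands, together with the 50 bases after the start, for a plain form of the interferon-stimulated response element (TTTC, any 2 bases, TTTC), which was held by 3.01% of all these promoters. It was held by 52 of 372 promoters (14%) of genes whose rise with TNF was opposed by TNC and by 15 of 25 (60%) of the interferon list, but by 10 of 380 (2.63%) of genes that saturated upward. The 4 genes of the opposed class with the lowest adjusted p and a match inside the upstream window are shown on the gene's strand, as the match nearest to the start with 20 bases on each side, and every match within the stretch is in capitals.
Slfn5: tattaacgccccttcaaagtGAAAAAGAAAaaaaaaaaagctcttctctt
Parp11: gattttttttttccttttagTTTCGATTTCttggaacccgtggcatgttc
Gbp3: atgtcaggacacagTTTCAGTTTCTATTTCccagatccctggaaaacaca
Gbp7: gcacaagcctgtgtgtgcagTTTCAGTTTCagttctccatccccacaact
These stretches lie at chr11:82951927-82951976 (plus strand), chr6:127446776-127446825 (plus strand), chr3:142559985-142560034 (plus strand) and chr3:142530263-142530312 (plus strand). The match of Slfn5 is on the opposite strand and reads as the reverse complement, and Gbp3 holds 2 overlapping matches. The definition of their class asks that all 4 genes be called higher with TNF alone and called below that level with both factors. Mean signals without factor, with TNF, with TNC and with both were 36.1, 933, 51.9 and 72.8 for Slfn5. For Gbp3 they were 1063, 14310, 948 and 4288. GBP genes are a family of near-identical copies, whose probe sets may share RNA.

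TNC also opposed TNF outside the interferon genes. Xdh, which encodes the xanthine oxidoreductase of purine breakdown, was raised by each factor alone, and stood below TNF alone with both. Its arrays gave 226, 262 and 266 without factor, 3572, 4002 and 4247 with TNF, 1814, 2017, 2156 and 1753 with TNC and 1547, 1750, 1720 and 1811 with both. Arrays with both factors overlapped those with TNC alone and lay below all with TNF alone. Additive log2 changes would have put it at 30212, and the interaction was -4.15 ± 0.13 (adjusted p = 9.34e-09). Among genes that TNF lowered, 542 were brought back up by TNC. Dhrs3, a retinaldehyde reductase, is 1 of them, with 1066, 799 and 907 without factor, 165, 175 and 119 with TNF, 543, 508, 549 and 599 with TNC and 580.3, 687, 589 and 546 with both. The 3 arrays with TNF alone lay below all others, and those with both factors overlapped those with TNC alone (interaction 2.73 ± 0.20, adjusted p = 4.29e-06). Pcsk5, a proprotein convertase, kept 3095 of mean signal with both factors against 1346 with TNF alone, 4977 with TNC alone and 5283 without either. Dlx5, a homeobox gene of bone formation, was lowered by both factors and stood at 122 with both against 77.7 with TNF (interaction 2.68 ± 0.20). In 643 of the 1008 genes of this kind TNC alone was not called, in 297 it moved the gene the same way as TNF, and in 68 the opposite way.

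**Figure D3:**
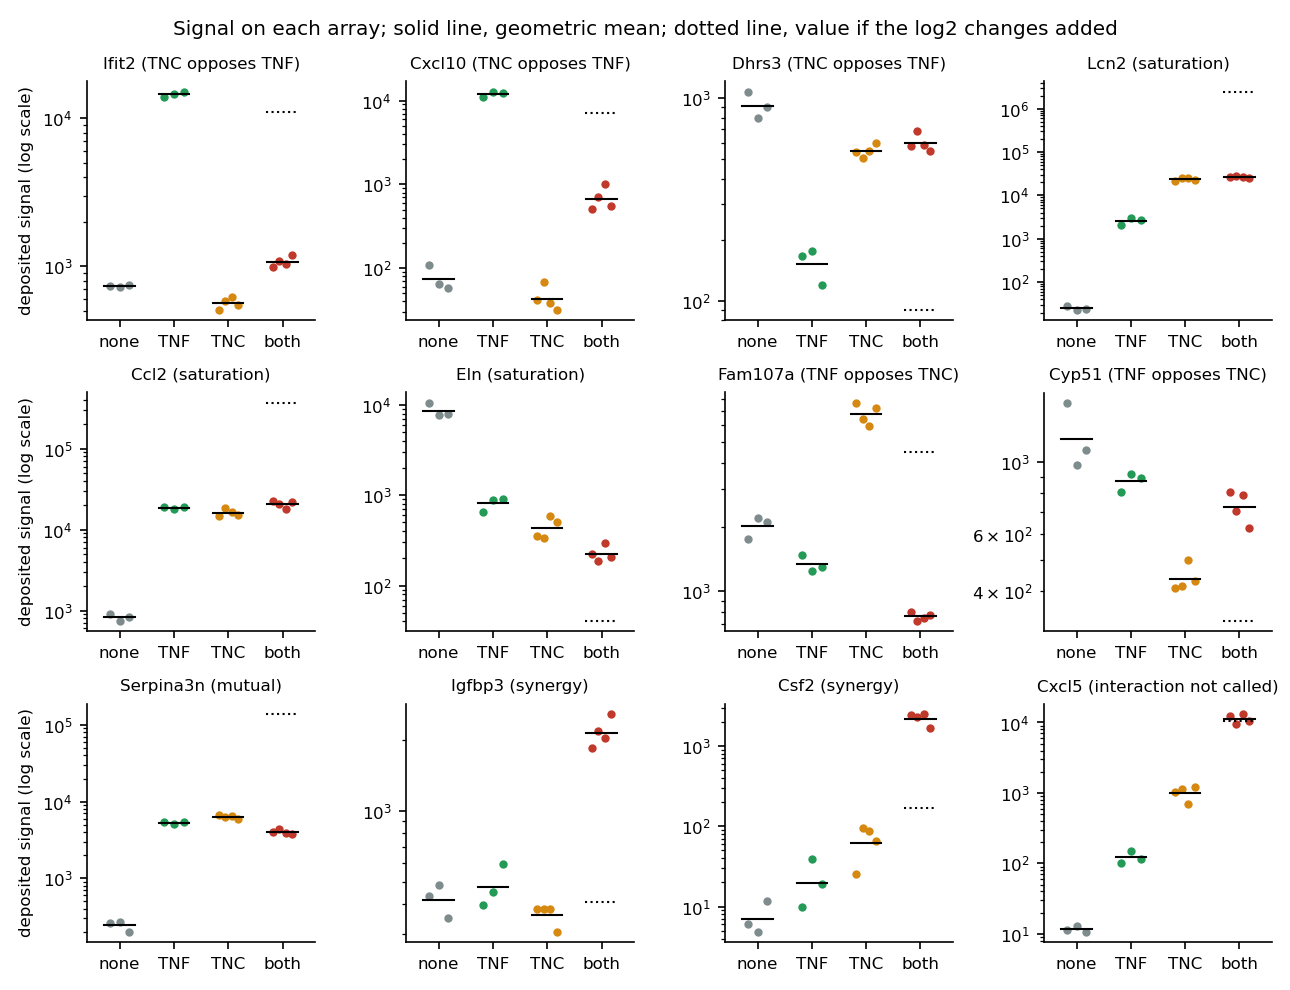
Deposited signal of 12 genes on each of the 14 arrays, on log axes that differ between panels; solid lines are geometric means of a group and the dotted line is the level at which the log2 changes would add. With both factors, Ifit2, Lcn2, Ccl2 and Serpina3n lie below the dotted line, Dhrs3, Eln, Igfbp3 and Csf2 above it, and Cxcl5 close to it.

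Most called genes of the NF-kB pathway saturated. Of 22 tested genes of the NF-kB pathway and its feedback, 20 had a lower interaction, against 8.9% lower over all genes. Of the 20, 13 were saturation, which held for 6.73% of all genes, and 6 were antagonism of TNF by TNC. Antagonism of that kind with a lower interaction held for 466 of all 15636 tested genes. Median log2 changes over the 22 genes were 1.90 by TNF, 1.26 by TNC and 1.94 by both. Nfkbia, the inhibitor that NF-kB induces to limit itself, read 5916, 5448 and 6210 without factor, 17654, 16349 and 18335 with TNF, 14867, 15708, 14381 and 14368 with TNC and 20155, 17770, 17571 and 18090 with both. Arrays with both factors overlapped those with TNF alone, and the interaction was -1.26 ± 0.10 (adjusted p = 6.09e-06). Relb, a subunit of NF-kB, had mean signals of 269.9 without factor, 2080 with TNF, 1020 with TNC and 1997 with both (interaction -1.98 ± 0.09). Nfkbie and Bcl3, which belong to the same inhibitor family, were called back below TNF alone, to 4131 from 6828 and to 826 from 1274.

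Of 16 tested CC and other chemokines, 7 had a lower interaction and none a higher one, 6 by saturation. Over all genes 8.9% were lower and 6.73% saturating. Of 5 that attract neutrophils, 3 were called, against 18.5% of all genes. All 3 saturated, Cxcl1 and Cxcl2 upward and Cxcl15 downward, the last not after median centring. Ccl2, the main attractant of monocytes, gave 908, 751 and 831 without factor, 18850, 17982 and 19234 with TNF, 14500, 18232, 16658 and 15019 with TNC and 22673, 20961, 17715 and 21666 with both. The 3 treated groups overlapped, all far above the arrays without factor, and the interaction was -4.13 ± 0.15 (adjusted p = 1.99e-08). Cxcl1 and Cxcl2, which attract neutrophils, were moved more by TNC than by TNF, to mean signals of 26838 and 21756 against 9206 and 7584, and reached 29505 and 25886 with both. Il6, a cytokine of acute inflammation, went on rising: its mean signals were 463 without factor, 6339 with TNF, 11338 with TNC and 21372 with both, and each array with both factors lay above all others, although the interaction was -2.86 ± 0.20 (adjusted p = 2.44e-06). Casp4, which senses bacterial lipopolysaccharide inside cells, and Tlr2, a receptor for bacterial lipoproteins, also saturated (interactions -2.95 ± 0.12 and -2.95 ± 0.15). Of 17 tested genes of Toll-like receptors and sensing, 11 were lower and none higher, against 8.9% lower over all genes.

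A plain form of the NF-kB element (GGG, any 2 bases, TTTCC), searched on both strands, was held by 1.59% of all promoters, by 16 of 380 (4.21%) of genes that saturated upward, by 16 of 372 (4.3%) of genes raised by TNF and opposed by TNC, and by 5 of 19 (26.3%) of the NF-kB list. The stretches below are those of the 4 upward saturating genes with the lowest adjusted p that hold a match in the upstream window, with every match in capitals.
Casp4: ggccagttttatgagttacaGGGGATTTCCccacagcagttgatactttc
Cxcl2: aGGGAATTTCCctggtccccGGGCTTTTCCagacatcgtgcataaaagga
Cxcl1: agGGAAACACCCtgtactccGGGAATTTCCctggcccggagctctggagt
Il6: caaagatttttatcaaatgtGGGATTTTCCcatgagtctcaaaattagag
They lie at chr9:5308736-5308785 (plus strand), chr5:90903801-90903850 (plus strand), chr5:90891154-90891203 (plus strand) and chr5:30013050-30013099 (plus strand). Cxcl2 and Cxcl1 hold 2 matches each, 1 of those of Cxcl1 on the opposite strand. Matches are descriptions of the letters and were not tested as binding sites.

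Acute phase genes fell far short of additivity, with a median interaction of -2.08. Of 15 tested, 10 had a lower interaction and none higher, 8 by saturation, against 8.9% lower and 6.73% saturating over all genes. Lcn2, a protein that withholds iron from bacteria, read 29, 23.4 and 23.7 without factor, 2025, 2965 and 2683 with TNF, 21868, 25021, 24803 and 23146 with TNC and 26698, 27561, 26261 and 25366 with both. No array of 1 group reached into the range of another, although the combination was not called apart from TNC alone, and the interaction was -6.49 ± 0.17 (adjusted p = 1.28e-09). Its signal without factor is close to the 30th percentile of those arrays, and the interaction was -5.32 with 32 added. Lbp, which presents lipopolysaccharide to its receptor, gave 65.6, 66.8 and 57.6 without factor, 5108, 6051 and 5777 with TNF, 6744, 7096, 6259 and 6758 with TNC and 9046, 10038, 8087 and 8250 with both. Its arrays with both factors were above all others, at a level far under the 597608 that additive log2 changes would give (interaction -6.08 ± 0.13). Saa3, an inducible serum amyloid, had mean signals of 45.1 without factor, 10731 with TNF, 24161 with TNC and 25358 with both.

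Several of these genes lay near the brightest values of the arrays. The brightest probe set of an array read 26915 to 33291, so the additive level of Lcn2, 2370684, lies above every value read. Of the 478 genes that saturated upward, 44 (9.21%) had a group mean at or above the 99th percentile of the arrays, which is 12234, against 2.01% of all tested genes. Lbp and Relb, of the same class, had all their group means below that percentile. The additive level of Lbp nevertheless also lies above every value read. The part of the ceiling in this class was not tested.

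A plain form of the C/EBP element, TTGCNNAA, searched likewise and named after the factors that drive the hepatic acute phase, was found in 8.65% of all promoters and in 8 of 12 (66.7%) of the acute phase list. It was in 35 of 380 (9.21%) promoters of upward saturating genes as a whole. The 3 saturating members with the lowest adjusted p and a match are printed, matches in capitals.
Lcn2: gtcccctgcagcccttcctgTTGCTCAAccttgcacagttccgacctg
Saa3: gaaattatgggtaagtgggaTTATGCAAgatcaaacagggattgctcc
Ptx3: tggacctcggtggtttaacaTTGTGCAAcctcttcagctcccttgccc
They lie at chr2:32387928-32387975 (minus strand), chr7:46715748-46715795 (minus strand) and chr3:66219810-66219857 (plus strand), and in Saa3 and Ptx3 the match is on the opposite strand. Ptx3, a long pentraxin, had mean signals of 3029 without factor, 21172 with TNF, 15523 with TNC and 21517 with both. Another, dimmer probe set of Ptx3 went the other way, with 235, 173, 132 and 145 in the same order. Its interaction was 0.59 ± 0.17, against -2.33 for the chosen probe set.

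Saturation downward took in 575 genes, among them the contractile apparatus. Of 26 contractile genes tested, 11 had a higher interaction and none a lower one, against 9.63% higher over all genes. Of the 11, 9 were saturation and 2 antagonism of TNF by TNC. Of all 15636 tested genes, 575 saturated downward and 542 were lowered by TNF and opposed by TNC. Median log2 changes over the 26 genes were -1.03 by TNF, -0.69 by TNC and -1.38 by both. Myh11, the smooth muscle myosin heavy chain, read 366, 266 and 407 without factor, 60.4, 69.3 and 83.4 with TNF, 45, 55.3, 49.2 and 65.8 with TNC and 36.5, 43.6, 29.8 and 27.9 with both. It was lowest with both factors on every array, at 33.9 against the 11 of additive log2 changes (interaction 1.62 ± 0.28, adjusted p = 0.0021). Myl9, the regulatory light chain of myosin, fell with TNF to 2046 from 12688 and stood at 2601 with both factors (interaction 1.26 ± 0.12, adjusted p = 2.29e-05). The interaction of Acta2, smooth muscle actin, was 0.16 ± 0.08 and was not called (adjusted p = 0.211), with mean signals of 22927 without factor, 15858 with TNF, 20753 with TNC and 16009 with both. When all probe sets of a gene were averaged, Myh11 lost its call (adjusted p = 0.103) and Acta2 gained one (interaction 1.08).

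Eln, which encodes elastin, the recoil protein of the arterial wall, gave 10434, 7664 and 8048 without factor, 655, 898 and 919 with TNF, 351, 336, 589 and 512 with TNC and 224, 188, 299.8 and 205 with both. TNF alone lowered it 10.6-fold and TNC alone 19.9-fold, and the arrays with both factors lay below all others but above the additive level of 41 (interaction 2.46 ± 0.33, adjusted p = 0.000339). Averaged over its probe sets the interaction was 1.62 with an adjusted p of 0.0553. Timp3, a metalloproteinase inhibitor bound to the matrix, was at 15104, 7732, 4183 and 4017 without factor, with TNF, with TNC and with both, so TNF lowered it without TNC, and with TNC its change was not called (interaction 0.91 ± 0.18). Timp1, the soluble inhibitor, saturated upward (interaction -1.46 ± 0.10). Of 20 tested genes of glycolysis and hypoxia, 11 had a lower interaction and 1 a higher, 9 of them by saturation. Over all genes 8.9% were lower, 9.63% higher and 6.73% saturating. Adm, the vasodilator adrenomedullin, had mean signals of 1080 without factor, 3196 with TNF, 4957 with TNC and 6411 with both (interaction -1.19 ± 0.13).

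**Figure D4:**
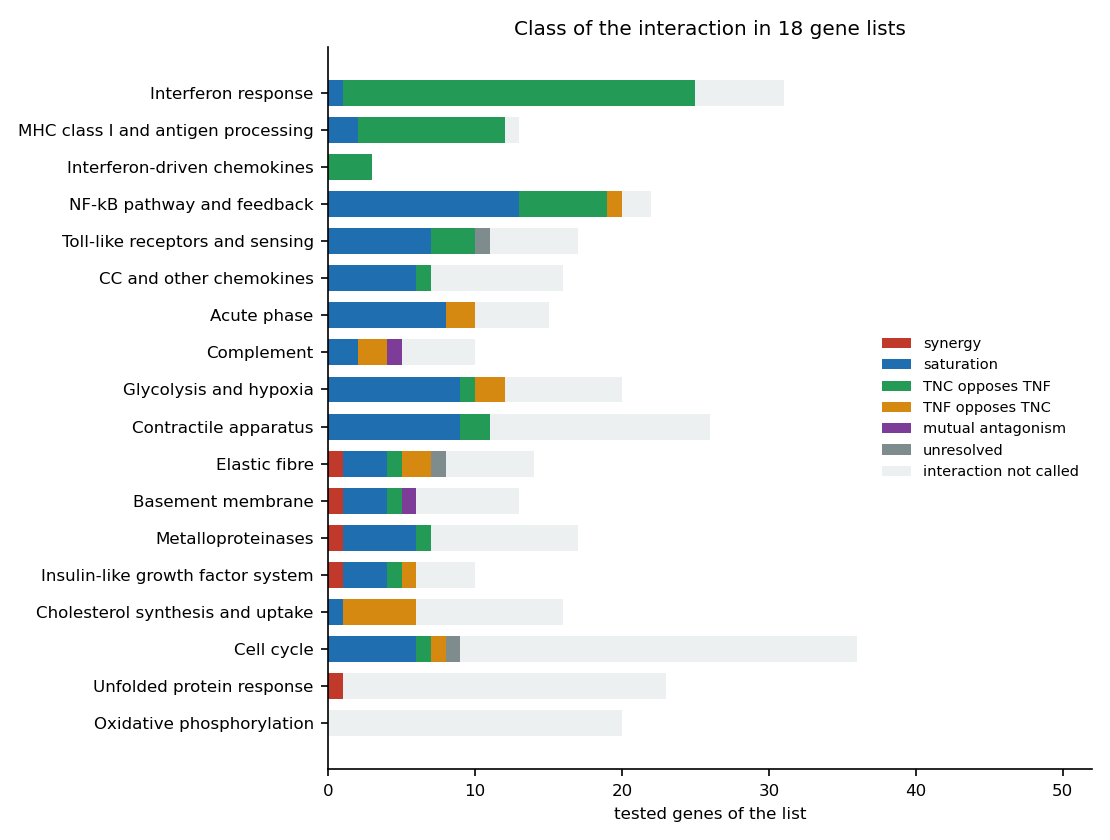
Bars give the number of tested genes in each of 18 lists of known function, split by the class of the interaction. Antagonism of TNF by TNC makes up 24 of 25 called interferon genes, saturation 13 of 20 called NF-kB genes and 9 of 11 called contractile genes. Over all 2898 called genes the counts of these classes are 1008 and 1053.

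In 259 genes it was TNF that opposed TNC. Fam107a, a stress-responsive actin-binding protein, was raised by TNC alone and was lowest with both. Its signal was 1747, 2213 and 2112 without factor, 1474, 1244 and 1296 with TNF, 7618, 6407, 5942 and 7214 with TNC and 799, 725, 749 and 774 with both. No array with both factors overlapped another group, and the interaction was -2.56 ± 0.15 (adjusted p = 7.76e-07). Socs3, the inhibitor of cytokine signalling through STAT3, gave 844, 741 and 735 without factor, 1856, 2118 and 1961 with TNF, 3432, 3480, 3986 and 3464 with TNC and 1691, 1769, 1906 and 1274 with both. TNC alone was highest and the combination overlapped TNF alone (interaction -2.48 ± 0.17, adjusted p = 3.04e-06). Lrg1, an acute phase glycoprotein, had mean signals of 124 without factor, 543 with TNF, 2500 with TNC and 1129 with both, and Cebpd, a C/EBP factor of the acute phase, 3358 without factor, 5982 with TNF, 12994 with TNC and 11272 with both. Wfdc17, a secreted inhibitor family member, was below the 30th percentile without factor and at 541 with TNF, 4926 with TNC and 2470 with both.

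Of 16 tested genes of cholesterol synthesis and uptake, 6 had a higher interaction and none a lower one, against 9.63% higher over all genes. In 5 of them a fall with TNC alone was opposed by TNF, which held for 83 of all 15636 tested genes. After median centring 3 of the 16 were higher, against 777 of all tested genes. Cyp51, which demethylates lanosterol, gave 1517, 982 and 1087 without factor, 811, 918 and 894 with TNF, 410.1, 414, 499 and 429 with TNC and 806, 709, 789 and 626 with both. With both factors every array lay above those with TNC alone and below those with TNF alone, although the latter difference was not called, and the interaction was 1.17 ± 0.20 (adjusted p = 0.00205). Insig1, the sterol sensor that retains SREBP, was lowered by TNC alone to 1032 from 1967 and stood at 1815 with both and 1970 with TNF. Igfbp5, a binding protein for insulin-like growth factors, turned its direction: TNC alone lowered it by 1.35 (log2), while on top of TNF it raised it by 0.46. Its arrays gave 502, 459 and 497 without factor, 971, 1158 and 1131 with TNF, 172, 229.5, 171 and 196 with TNC and 1458, 1411, 1591 and 1491 with both, without overlap between groups (interaction 1.80 ± 0.15, adjusted p = 9.77e-06). Averaged over its probe sets the interaction was 1.11 and was not called (adjusted p = 0.103).

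For 84 genes each factor undid part of the other. Serpina3n, an inhibitor of serine proteases, gave 261, 269.6 and 201 without factor, 5401, 5047 and 5389 with TNF, 6586, 6268, 6401 and 5968 with TNC and 4066, 4374, 3871 and 3797 with both. TNF alone raised it 21.8-fold and TNC alone 26.1-fold, and all 4 arrays with both factors lay below all 7 arrays with 1 factor (interaction -5.10 ± 0.13, adjusted p = 1.28e-09). Marcksl1, a membrane-bound regulator of actin, went from 2413 without factor to 8044 with TNF and 5334 with TNC, but to only 3040 with both. In the other direction, Plagl1, a zinc finger growth suppressor, read 1844, 1912 and 2334 without factor, 468, 481 and 526 with TNF, 894, 759.5, 926 and 1104 with TNC and 1558, 1384, 1524 and 1563 with both. Either factor alone lowered it, and the combination was above both (interaction 2.76 ± 0.17, adjusted p = 1.2e-06). Ifi27, a mitochondrial protein that interferon induces in other settings, fell to 2320 with TNF from 6935 and was at 7217 with both.

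Synergy was the rarest class. It took in 97 genes that rose and 94 that fell, and 37 of the 191 departed from additivity at least 2-fold. In 129 of them neither factor alone was called. On every array with both factors the signal was beyond all 10 other arrays for 172 of the 191 genes, against 8.45% of all genes tested; the definition itself asks for a combination beyond the single factors, so this share describes the class. Igfbp3, a binding protein of insulin-like growth factors, gave 435, 484 and 349 without factor, 399, 452 and 591 with TNF, 382, 381, 383 and 307 with TNC and 1838, 2174, 2034 and 2556 with both. Arrays without factor overlapped those with either factor alone, all 4 arrays with both lay above the other 10, and the combination was 5.09-fold above no factor (interaction 2.38 ± 0.23, adjusted p = 3.07e-05).

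Csf2, the granulocyte-macrophage colony-stimulating factor, read 6.06, 4.9 and 11.7 without factor, 9.92, 39.4 and 19 with TNF, 25.5, 94.8, 88.3 and 66.5 with TNC and 2423, 2264, 2471 and 1653 with both. All 4 arrays with both factors lay far above the other 10, most of which are dim, with an interaction of 3.67 ± 0.75 (adjusted p = 0.00548) and of 4.08 when 32 was added to every signal. Mmp9, a gelatinase, behaved alike at a lower level, with 16.1, 12.2 and 7.54 without factor, 10.3, 26.6 and 10.7 with TNF, 12.9, 12.1, 3.59 and 25.2 with TNC and 130.5, 109, 107 and 86.7 with both. Its interaction was 2.97 ± 0.80 (adjusted p = 0.0241), and the call was lost when either array 1 or 2 without factor, or array 1 or 3 with TNF, was left out (adjusted p of 0.0521 to 0.0617). With 32 added to every signal it was 1.53. Apart from 26.6 with TNF and 25.2 with TNC, every Mmp9 signal outside the combination lay below the percentile used to filter genes. Mmp9 thus passed the filter only through its arrays with both factors, and a change by either factor alone cannot be judged at such dim signals. Pf4, a platelet-type chemokine, had mean signals of 68.1 without factor, 228 with TNF, 160.2 with TNC and 1191 with both, and Ctsc, the protease that activates granule proteases, 2832 without factor, 4617 with TNF, 3927 with TNC and 10671 with both, with both above every single factor. Abca5, a lipid transporter, rose only with both, to 1017 from 345; its second probe set was dim and gave an interaction of -0.27 ± 0.69, and the mean of both was not called (0.60, adjusted p = 0.354).

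The C/EBP element was held by 15 of 78 (19.2%) promoters of the genes that rose in synergy and by 9 of 69 (13%) of those that fell, against 8.65% of all. Among those with a match, the stretches of Pf4 and Csf2 are printed because these genes are described here.
Pf4: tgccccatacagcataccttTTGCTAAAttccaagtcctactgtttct
Csf2: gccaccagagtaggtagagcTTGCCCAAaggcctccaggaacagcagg
They lie at chr5:90772203-90772250 (plus strand) and chr11:54250017-54250064 (minus strand).

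Of the 94 genes that fell in synergy, 4 that act outside the cell are described. Cemip, which starts the breakdown of hyaluronan, gave 2263, 2518 and 2666 without factor, 2107, 1752 and 2088 with TNF, 2732, 1844, 2587 and 2583 with TNC and 328, 241, 240.2 and 173 with both. Arrays with TNC alone overlapped those without factor and those with TNF alone, all 4 with both factors lay below the other 10, and the interaction was -3.00 ± 0.28 (adjusted p = 2.29e-05). Col8a1, a short-chain collagen of vessel walls, read 22718, 23087 and 24090 without factor, 17918, 16961 and 17866 with TNF, 18501, 18328, 19644 and 19051 with TNC and 10648, 9326, 10074 and 9230 with both. Each factor alone lowered it a little and both lowered it to 9802 against an additive 14243 (interaction -0.54 ± 0.08). Thbs1, thrombospondin 1, named after its values were seen, fell to 4838 from 17880 (interaction -0.87 ± 0.20), and Ccn5, a growth inhibitor of smooth muscle cells, to 5947 from 10002 (interaction -0.71 ± 0.11).

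Some strongly induced genes had no called interaction. Cxcl5, a neutrophil chemokine, gave 11.4, 12.9 and 10.8 without factor, 103, 150.1 and 116 with TNF, 1035, 1124, 707 and 1218 with TNC and 12227, 9607, 13033 and 10408 with both. The groups did not overlap, and the combination reached 11235 against an additive 10382 (interaction 0.11 ± 0.27, adjusted p = 0.834). Its signal without factor is dim, and with 32 added to every signal the interaction was 1.63 (adjusted p = 0.000359), so additivity of Cxcl5 depends on the scale. Ptgs2, the inducible cyclooxygenase, had mean signals of 1009 without factor, 2012 with TNF, 3289 with TNC and 9874 with both (interaction 0.59 ± 0.28, adjusted p = 0.175), with all arrays of the combination above the rest. Csf3, the granulocyte colony-stimulating factor, was 14.3 without factor, 11.4 with TNF, 435 with TNC and 1011 with both (interaction 1.55 ± 0.74, adjusted p = 0.187), but it was called with 32 added (1.19, adjusted p = 0.0245) and without TNF array 2 (2.28, adjusted p = 0.0136). A p that misses the threshold does not show that these genes are additive. Actb, beta-actin, served as a control and had an interaction of -0.01 ± 0.09.

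In other lists the counts stand against 9.63% higher and 8.9% lower over all tested genes. After median centring, 777 of all 15636 tested genes were higher and 1229 lower. With quantile normalization these counts were 1501 and 1466. Of 17 tested metalloproteinases, 3 had a higher and 4 a lower interaction: Mmp2 rose above all other arrays only with both factors (means 6958 without factor, 5790 with TNF, 7115 with TNC and 8856 with both), Mmp3 saturated upward (means 961 without factor, 3749 with TNF, 18401 with TNC and 29647 with both), and Mmp13 was called (adjusted p = 0.0427) but not with 32 added to every signal (interaction -0.15) nor in 12 of the 14 fits that left out an array. Of 13 basement membrane genes, 6 were higher and none lower, and 6 and 1 after median centring or quantile normalization. Among the higher ones were Col4a1 and Col4a2, the main collagen chains of that membrane (interactions 0.49 ± 0.08 and 0.60 ± 0.07). Of 14 elastic fibre genes, 4 were higher and 4 lower, and 2 and 3 after median centring. Of 10 genes of the insulin-like growth factor system, 6 were higher, with Igfbp3 and Igfbp5 in different classes and Igfbp2 and Pappa saturating downward (interactions 0.76 ± 0.17 and 1.10 ± 0.16); Igfbp2 lost its call after median centring (adjusted p = 0.0526). Of 36 cell cycle genes, 8 were higher and 1 lower, and 5 and 1 after median centring, while Mki67 itself was not called (interaction 0.66 ± 0.29, adjusted p = 0.147). Of 23 genes of the unfolded protein response, 1 (4.35%) was called, against 18.5% over all genes.

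Probe sets that were not chosen gave a second reading of the same RNA. Over 1677 called genes, 2549 of 3024 other probe sets (84.3%) had an interaction of the same sign as the chosen one. The share was 84.7% for synergy, 86.2% for saturation and 74.4% for unresolved genes. On the linear scale, where additivity means that signals rather than log2 changes add, 189 of 191 synergistic, 1032 of 1053 saturating and 1350 of 1351 antagonistic genes kept the sign. The class definitions fix this sign for many of these genes, such as those that saturated downward, so these shares describe the classes. Of the 478 genes that saturated upward, where the sign could turn, 457 kept it.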

How the data were processed

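RNA of cultured smooth muscle cells was hybridised to 14 Affymetrix mouse arrays, 1-colour and with 45101 probe sets each. The authors deposited linear signal intensity values, 1 per probe set, made with Affymetrix Expression Console per the submitters' processing notes; no version or summary algorithm was found in the labels. In the deposited values every array has a trimmed mean of 500. They were taken to log2 as deposited. Control probe sets (64), those with several gene symbols (932) and those without a name (9160) were left out, and each gene was represented by its probe set with the highest mean over all 22 arrays of the series. Genes at or above the 30th percentile of an array in at least 3 arrays were tested, with limma 3.58.1 in R 4.3.3: 1 model over the 4 groups (10 residual degrees of freedom), 6 contrasts, and Benjamini-Hochberg adjustment over the 15636 genes of each contrast, called under 0.05. Errors of log2 values are standard errors of that fit, and group signals are geometric means. The code was tested on simulated data. The number of arrays limits the precision.

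The gene lists, classes and members were chosen with earlier results of these data known. Named genes are a chosen set and up to 4 genes of each list. To these come the 8 genes of each class and direction with the lowest adjusted p among those whose brightest group reaches the 60th percentile. Promoters outside chr18 were shown for the genes with the lowest adjusted p among those with a match. In synergy Pf4 and Csf2 were chosen instead, because they are described. Same-numbered arrays of different groups did not deviate together (19 pairs, correlations from -0.01 to 0.06), so numbers were not taken as pairs. Alternatives were quantile normalization, median centring, other filters and probe set rules, log2(value + 32), array weights, trend and robust variance, a stricter threshold, a replicate block and leaving out each array. The labels give no array batch, and the 8 other arrays of the series entered only the choice of probe set.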

Additional observations from a re-analysis of the deposited data

Results flagged for a closer look

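The effect of TNF with TNC present differed from that without it for 2898 genes by the interaction test, which is the comparison reported above.

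Among 98 genes, 196 groups of 4 arrays were checked for an array far from its other 3, and 14 (7.14%) held one; chance gives about 1 group in 20. With both factors, array 4 was low for Irf1 (3465), Csf3 (609.9), Tlr2 (4799), Tnc (66.3) and Tgfbi (183) and high for Gbp7 (2855), and array 1 was low for Dlx5 (104) and high for Col4a1 (13326). With TNC alone, array 2 was high for Parp11 (447) and low for Marcksl1 (4736) and Cemip (1844), array 3 was high for Socs3 (3986) and Csf3 (517), and array 4 was low for Igfbp3 (307).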

How the results depend on the processing

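Centring each array on its median left 777 genes with a higher interaction, 120 in synergy and 867 in antagonism. The mean over all probe sets of a gene gave 936, 119 and 830. An adjusted p under 0.01 gave 721 higher and 835 lower, with 72 in synergy, 624 in saturation and 672 in antagonism. Leaving out 1 array gave 1160 to 1487 higher and 1136 to 1346 lower interactions, 137 to 222 genes in synergy, 850 to 1078 in saturation and 1043 to 1282 in antagonism. The numbers do not pair the arrays; with the replicate number as a block the counts were 1288 higher, 1232 lower, 159, 960 and 1122, and with a replicate block nested in the TNC arm 1019 higher and 1051 lower, where no class can be given. Other settings kept these counts within 1.5 times. Under quantile normalization 161 of the 191 synergistic, 988 of the 1053 saturating and 1247 of the 1351 antagonistic genes kept their class, and under median centring 79, 667 and 793 did.

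Of 87 called genes named or considered by name, 18 lost the call under at least 1 of 26 alternatives and 0 changed sign. Signs turned only for genes without a call: Cxcl5 (-0.08 with quantile normalization, -0.05 to 0.27 without 1 array), Actb (0.01 with array weights, -0.04 to 0.03 without 1 array), Nos2 (-0.35 to 1.01 without 1 array) and Tnc (-0.25 to 0.01 without 1 array). The cause was not tested. The block by number ended the calls of Tagln and Mmp13, and the nested block those of Tagln, Mmp9, Mmp13, Igfbp2 and Serp1. Signal near background limits Cxcl9, Cxcl11, Slfn5, Lcn2, Saa3, Wfdc17, Mmp9 and Mmp13, whose interactions moved by over 1.5 times with 32 added, and Csf2, Csf3 and Cxcl5, of which the latter both gained a call.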

Other observations

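Some genes that pass new proteins into the endoplasmic reticulum were among the synergistic rises. A list of signal peptide recognition and translocation was put together after such genes were seen among the calls. Of its 29 tested genes, 10 had a higher interaction and none a lower one, 7 of them by synergy. Over all tested genes 9.63% were higher and 1.22% were in synergy. Because the list was drawn up from the calls, its counts describe these genes and test nothing. After median centring 2 of the 29 were higher, against 777 of all 15636 tested genes. With quantile normalization 12 were higher, against 1501, so the count depends on the scaling. Serp1, which stabilises newly made membrane proteins, had mean signals of 4829 without factor, 3898 with TNF, 5291 with TNC and 6816 with both (interaction 0.67 ± 0.16, limma adjusted p = 0.0136). In a list of 15 genes of amino acid synthesis made in the same way, 2 were called (13.3%, against 18.5% of all tested genes), under each of the 3 scalings. Phgdh, the first enzyme of serine synthesis, went from 2331 to 6013 with both factors (interaction 1.09 ± 0.25), and Gpt2, a mitochondrial alanine transaminase, from 475 to 2109 (interaction 0.85 ± 0.19), a call lost when its probe sets were averaged (0.58, limma adjusted p = 0.0779). Hspa5, the main chaperone of the endoplasmic reticulum, had no called interaction (0.18 ± 0.23, limma adjusted p = 0.677).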
